A study of Mus musculus with 4 samples.

Results

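The extracellular metalloproteases of the Mmp and Adamts families and the Timp inhibitors were followed in the mouse mammary gland from its bud stage to birth. Members were chosen by symbol alone, as every gene of the deposited tables named Mmp, Adamts or Timp followed by a number, and no expression value entered that rule. This gave 45 members of the 32932 gene identifiers in any of the tables, namely 22 Mmp, 19 Adamts and 4 Timp genes, each with the same identifier and symbol in all 4 tables. The mammary epithelium grows as a bud into a mesenchyme that it later branches through, and this study sampled both tissues together before, at and after the onset of branching.

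Matrix metalloproteases are zinc-dependent enzymes that are made as inactive precursors and cut collagens, laminins, proteoglycans and many cell surface proteins. Most are secreted, and the membrane-type enzymes stay anchored at the cell surface. The Adamts proteases are secreted relatives with thrombospondin repeats; among them are enzymes that cut hyalectan proteoglycans such as versican and aggrecan, and enzymes that remove the N-terminal propeptide of fibrillar procollagens. Timps are small secreted proteins that block the active site of matrix metalloproteases, and Timp3 also binds the matrix. Timp2 has a further role: with Mmp14 it forms the cell surface complex in which the precursor of Mmp2 is activated. In the mammary gland these proteins are known for their part in ductal branching and in remodelling of the stroma. Messenger RNA levels, as measured here, do not show whether an enzyme is active.

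Single cells came from mammary tissue of female WT C57B6 mice (C57 B6/N in the study's methods) at embryonic days E13.5, E14.5 and E15.5 and on the day of birth, P0, with 1 library per stage and no treatment or mutation in any group. Per the study's methods, each library pooled all mammary bud pairs of several embryos from several dams and came from a dissection session of its own, so that stage, session and library cannot be told apart. Cells carrying CD45, CD31 or Ter119 were removed by sorting, and the P0 tissue was digested with more collagenase and less hyaluronidase and passed through red cell lysis. Cells with at least 5000 UMIs (counted mRNA molecules) and at most 6% mitochondrial UMIs were kept, which left 235, 76, 816 and 503 cells in stage order. Cells were called epithelium where the summed UMIs of Epcam, Krt8, Krt18, Krt5 and Krt14 exceeded those of Col1a1, Col1a2 and Col3a1, and mesenchyme where the collagens were higher. The 8 groups of stage and tissue held 98, 45, 532 and 230 epithelial and 135, 31, 283 and 273 mesenchymal cells, and 3 cells with equal sums were left out. The E14.5 groups were the smallest, with 1273252 and 838030 UMIs in all, against 2041641 to 14293755 in the other groups.

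Markers that the tissue rule did not use followed the tissue names in all 4 libraries. The summed level of Cdh1, Trp63, Cldn4, Esrp1 and Sfn in mesenchyme was 0.385% to 2.80% of its epithelial level. That of Pdgfra, Lum, Dcn, Prrx1 and Twist2 in epithelium was 2.92%, 2.13%, 1.22% and 0.355% of its mesenchymal level in stage order, and the highest single gene among them reached 9.03%, 5.16%, 2.72% and 0.950%. These shares are the level at which RNA of the other tissue, free or from mixed cells, was found here, and some members are read against them below. The epithelium also held skin markers (Krt1, Krt10, Krt15, Krtdap and Lor), at 507, 710, 1539 and 27.5 CPM in stage order. At least 2 UMIs of these skin genes were held by 78 of 98, 35 of 45, 489 of 532 and 13 of 230 epithelial cells in stage order. The study names Krtdap among the genes of its luminal-like mammary cells at E15.5, so this list does not mark skin alone. The study set contaminating skin cells aside and described fewer mammary epithelial cells at each stage than are kept here. At E13.5 it described as mammary only a small part of the epithelial cells kept here. No skin cells were removed here, so epithelium below may hold skin as well as mammary cells. In P0 mesenchyme 5 cells carried 25937 of the group's 26002 UMIs of globin genes, and 3 cells carried 240 of its 266 UMIs of immune markers (Ptprc, Cd68, Csf1r, Lyz2 and Fcer1g). Every count of members called between tissues or stages below was the same without these cells. Endothelial markers (Pecam1, Cdh5, Kdr, Tek and Emcn) were 15.4 CPM in E13.5 and 96.1 CPM in P0 mesenchyme. At least 2 of their UMIs were held by 11 of 135 and 53 of 273 cells. Cells with endothelial markers were not removed, and their part in the levels was not tested.

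Levels are given as CPM, the UMIs of a gene per 1000000 UMIs of all genes, both summed over the cells of a group, with exact 95% Poisson intervals, and ratios with exact conditional 95% intervals. With 1 library per stage there is no replicate, no test was made, and the intervals cover counting error only. Each UMI marks 1 captured 3′ end, so that levels of different genes were compared without scaling by length. A member was called higher or lower from a 2-fold difference in CPM where both groups together held at least 20 UMIs. A count of 0 was read as 3 counts, and such a ratio is a bound. By its header, the E15.5 table was counted by the authors on another version of the software and gene set than the other stages. The processing notes name the same version for all stages.

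Of the 45 members, 22 reached 20 CPM in at least 1 of the 8 groups and 7 more reached 5 CPM. The other 16 stayed under 5 CPM everywhere: Adamts8, Adamts13, Adamts14, Adamts16, Mmp7, Mmp9, Mmp10, Mmp12, Mmp17, Mmp21, Mmp24, Mmp27, Mmp28, Timp4, and Mmp1b and Mmp20, which had 0 UMIs in every group. In mesenchyme the summed level of all members was 955, 1521, 1316 and 3220 CPM in stage order. The epithelial sum was 229, 350, 371 and 937 CPM. Mesenchyme was thus the higher tissue at each stage, and P0 the highest stage in both tissues. A few genes carried much of the sum. Timp2 was the highest member in mesenchyme at every stage but E14.5, with 17.2%, 19.7% and 20.4% of member UMIs, and Adamts1 was the highest there with 25.3%. In epithelium Mmp14 led at E13.5 with 17.9%, ahead of Timp2 with 17.5%. Timp3 led at E14.5 with 54.2 CPM and at E15.5 with 36.0% of member UMIs, and Adamts1 led at P0 with 31.8%, ahead of Timp3 with 29.1%. The intervals of the first and the next member overlapped in epithelium at E13.5, E14.5 (Mmp16, 50.3 CPM) and P0, so that their order there is not resolved. In E14.5 mesenchyme 94 of the 322 Adamts1 UMIs lay in 1 cell. Without that cell Adamts1 was at 272 CPM (238 to 310), which overlapped the interval of Timp2 (230 CPM), so its lead there is not resolved either.

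**Figure D1:**
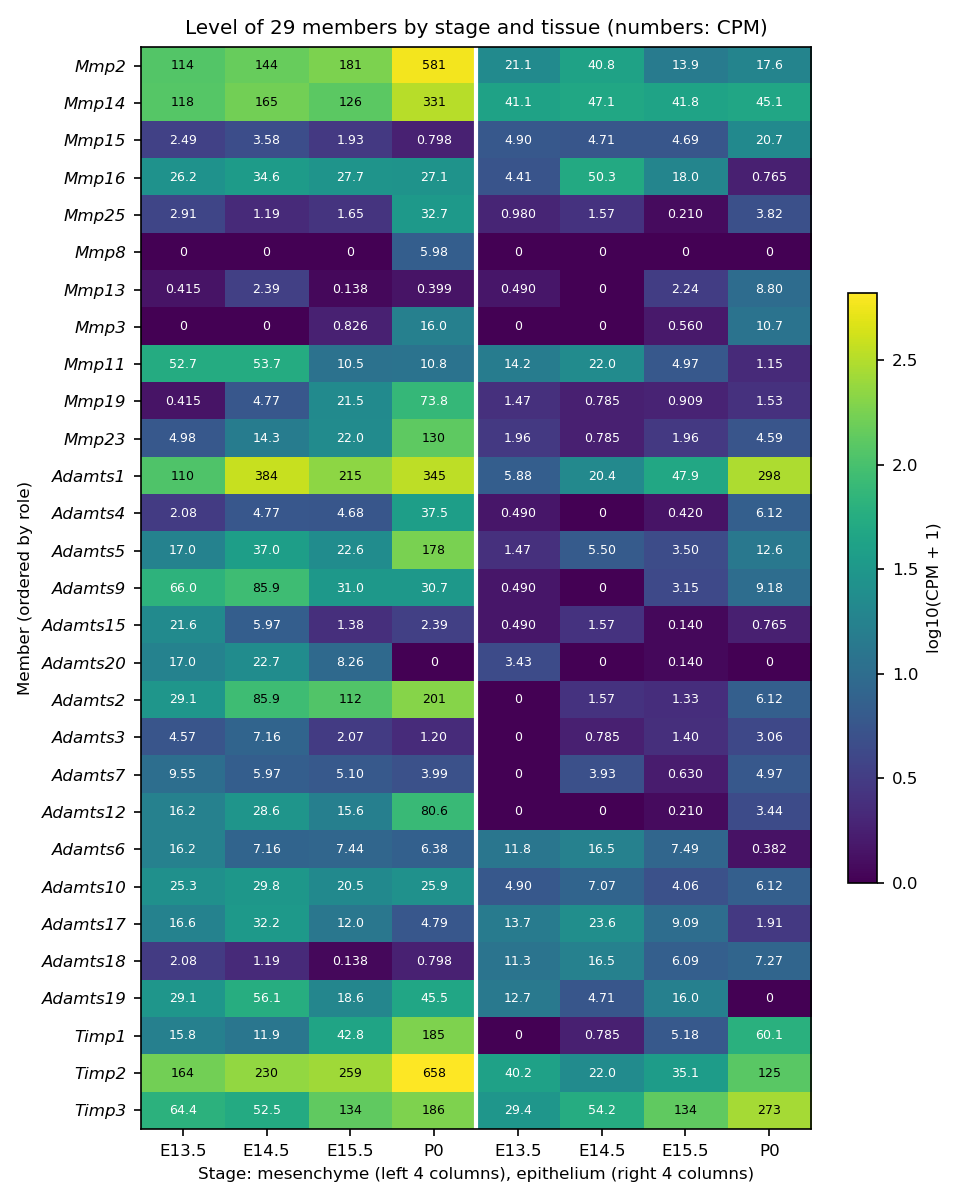
Level in CPM of the 29 members that reached 5 CPM in at least 1 group (rows, ordered by role) in mesenchyme and epithelium at the 4 stages (columns, 1 library a stage); colour is log10(CPM + 1) and the number in each field is the CPM. The brightest fields are Timp2 (658 CPM) and Mmp2 (581 CPM) in P0 mesenchyme, while Mmp15, Adamts18 and Mmp13 are among the few rows that are brighter in epithelium.

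The first comparison asked in which tissue each member was higher, within 1 library at a time. At E13.5, 20 members had enough UMIs, of which 17 were higher in mesenchyme and 1 in epithelium, Adamts18. In these counts 25 of the 45 members were under the minimum. Among all 10630 genes compared, 21.9% were higher and 10.3% lower in mesenchyme. At E14.5, 11 of 16 members were higher in mesenchyme and 2 were lower, against 17.5% and 14.7% of all genes. At E15.5, 17 of 28 were higher and 4 lower, against 22.5% and 16.8%. At P0, 16 of 23 were higher and 3 lower, against 18.9% and 24.7%. Those higher in epithelium were Adamts18 and Adamts6 at E14.5, Adamts18, Mmp10, Mmp13 and Mmp15 at E15.5, and Adamts18, Mmp13 and Mmp15 at P0. The median log2 ratio of the members was 2.40, 1.95, 2.25 and 2.61 in stage order, and that of all genes 0.18, -0.02, 0.10 and -0.30. Scaling by the median ratio of all genes gave 16, 11, 16 and 16 members higher, against 18.6%, 17.9%, 20.7% and 23.1% of all genes on that scale. The share of members that was higher in mesenchyme was thus above that of all genes at each stage, on both scales, while the few members higher in epithelium made a share near that of all genes at E14.5 and E15.5.

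**Figure D2:**
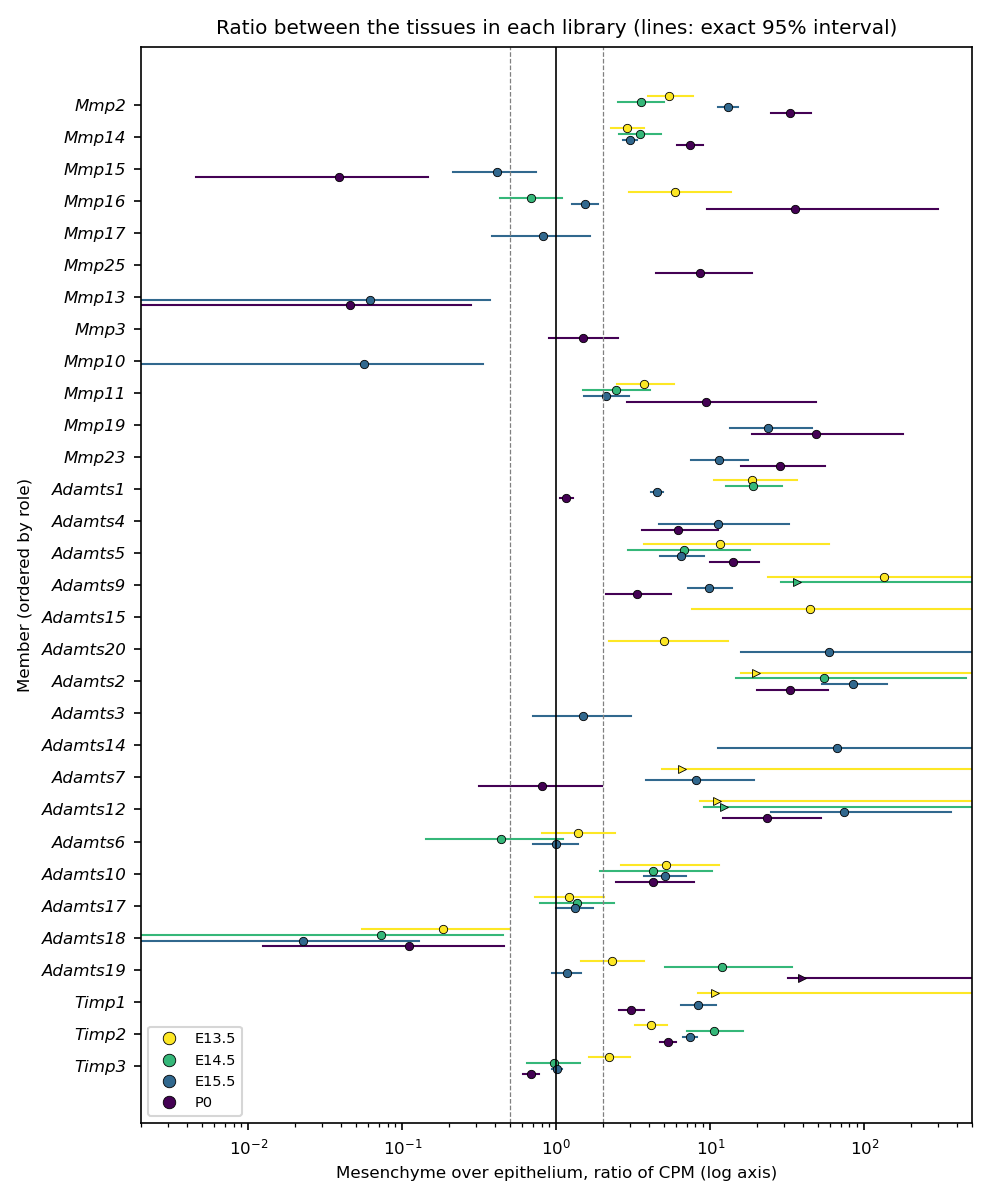
Ratio of CPM in mesenchyme over epithelium (log axis) for each member with at least 20 UMIs in both tissues together at a stage, coloured by stage; lines are exact 95% intervals, arrowheads mark bounds against a count of 0, and dashed lines mark 2-fold either way. Most points lie to the right of 1, Adamts18, Mmp13 and Mmp15 lie to the left, and Timp3 moves from 2.19 at E13.5 to 0.681 at P0.

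Mmp2 (chr8:92827291-92853420 in GRCm38), a gelatinase that cuts denatured collagen and basement membrane collagen, was higher in mesenchyme at every stage. Its level in mesenchyme was 114 CPM (101 to 129), 144 (120 to 173), 181 (171 to 191) and 581 (552 to 612) in stage order. The first pair of stages overlapped in their intervals, as did the middle pair, and P0 stood above all. The epithelial level was 21.1, 40.8, 13.9 and 17.6 CPM. The level in mesenchyme was therefore 5.42-fold, 3.54-fold, 13-fold and 33.0-fold higher, with intervals of 3.92 to 7.66, 2.53 to 4.99, 11.2 to 15.1 and 24.6 to 45.3. The epithelial Mmp2 level was 18.4%, 28.3%, 7.70% and 3.03% of the mesenchymal level in stage order. It was above the highest mesenchymal marker at each stage, which was at 9.03%, 5.16%, 2.72% and 0.950%. At P0, 91.9% of mesenchymal cells held an Mmp2 UMI, and 82.4% after every cell was thinned to 5000 UMIs. Mmp9, the other gelatinase and a known product of neutrophils and macrophages, had 11 UMIs in P0 mesenchyme, of which 10 lay in 1 cell with immune markers.

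Mmp14 (chr14:54431612-54445364), the membrane-anchored activator of Mmp2, was present in both tissues. Its level in mesenchyme was 118 CPM (105 to 133), 165 (138 to 195), 126 (118 to 134) and 331 (308 to 354) in stage order. Epithelium had 41.1, 47.1, 41.8 and 45.1 CPM, and the intervals of these 4 values overlapped. Mesenchyme was 2.88-fold, 3.49-fold, 3.01-fold and 7.32-fold higher, and the epithelial level was between 13.7% and 34.8% of the mesenchymal level, well above that of the mesenchymal markers.

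The other membrane-type enzymes were lower and differed in place. Mmp15 was an epithelial gene, with 4.90, 4.71, 4.69 and 20.7 CPM in epithelium and 2.49, 3.58, 1.93 and 0.798 CPM in mesenchyme. It was called lower in mesenchyme at E15.5, where epithelium was 2.43-fold higher (1.35 to 4.68), and at P0, where it was 25.9-fold higher (6.83 to 219). The E15.5 call was lost with every cell thinned to 5000 UMIs. Mmp16 was steady in mesenchyme, at 26.2, 34.6, 27.7 and 27.1 CPM, while the epithelial level was 4.41, 50.3, 18 and 0.765 CPM in stage order. At E14.5, 17 of its 64 epithelial UMIs lay in 1 cell. Mesenchyme was 5.93-fold higher at E13.5 and 35.4-fold higher at P0 and was not called at the stages between, with ratios of 0.688 (0.428 to 1.08) and 1.54 (1.27 to 1.86). Mmp25, a lipid-anchored member, was 2.91, 1.19, 1.65 and 32.7 CPM in mesenchyme and 0.980, 1.57, 0.210 and 3.82 in epithelium. At P0 it was 8.55-fold higher in mesenchyme (4.42 to 18.5), with UMIs in 54 of 273 cells and none in the cells with many immune markers. Mmp17 had at most 2.03 CPM.

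Of the Mmp genes in the deposited tables, which held no Mmp1a, a group of 9 lies within 427 kb of chromosome 9 (chr9:7272514-7699585): the collagenases Mmp1b, Mmp8 and Mmp13, the stromelysins Mmp3 and Mmp10, the metalloelastase Mmp12, the matrilysin Mmp7, the enamel protease Mmp20, and Mmp27. These genes were low in every group, and most UMIs of some of them came from 1 cell. Mmp13 was 0.490, 0, 2.24 and 8.80 CPM in epithelium and 0.415, 2.39, 0.138 and 0.399 CPM in mesenchyme. Its 32 UMIs in E15.5 epithelium came from 7 of 532 cells, with 18 in 1 of them, and its 23 UMIs in P0 epithelium from 6 of 230 cells. Mmp10 had 35 UMIs in 9 cells of E15.5 epithelium, 24 of them in 1 cell. The 28 Mmp3 UMIs of P0 epithelium (10.7 CPM) all came from 1 cell, which also held all 10 Mmp10 UMIs of that group. In P0 mesenchyme Mmp3 was 16 CPM, from 40 UMIs in 14 of 273 cells, and it was 0 in both tissues at E13.5 and E14.5. Of the 22 E15.5 epithelial cells with Mmp3, Mmp10, Mmp12 or Mmp13, only 1 held more than 1 of the 4. Mmp8, the neutrophil collagenase, had 15 UMIs (5.98 CPM) in P0 mesenchyme, all in 1 cell with immune markers, and 0 in every other group. The counting intervals of these genes are therefore too narrow, since UMIs of 1 cell are not independent. Without the cell with most UMIs of each gene, Mmp10 and Mmp13 were no longer called at E15.5, nor Mmp13 at P0, and Mmp3 was called higher in mesenchyme at P0.

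The sequence just before the start of these genes is shown for the 3 of them with at least 20 UMIs in an epithelial group, which share a motif, and for their neighbour Mmp8, in which it was not found. Each line gives the 100 bases upstream of the RefSeq start on the plus strand of GRCm38.p6, 5′ to 3′, with the AP-1 site TGAGTCA or its reverse complement TGACTCA in capitals. The windows are chr9:7272414-7272513, chr9:7445722-7445821, chr9:7502242-7502341 and chr9:7558329-7558428.
Mmp13: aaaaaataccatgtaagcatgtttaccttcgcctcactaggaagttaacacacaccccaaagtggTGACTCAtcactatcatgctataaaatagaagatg
Mmp3: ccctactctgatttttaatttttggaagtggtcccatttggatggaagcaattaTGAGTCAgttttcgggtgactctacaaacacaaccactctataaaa
Mmp10: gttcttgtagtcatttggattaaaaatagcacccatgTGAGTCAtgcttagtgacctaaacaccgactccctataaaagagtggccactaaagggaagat
Mmp8: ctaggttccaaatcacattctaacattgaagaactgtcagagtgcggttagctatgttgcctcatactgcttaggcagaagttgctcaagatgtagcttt
The motif began 35 bases upstream of the start in Mmp13, 46 in Mmp3 and 63 in Mmp10, and these letters were not in the 100 bases shown for Mmp8. Within 250 bases upstream, 6 of the 9 genes of the group held it, the others being Mmp12, Mmp1b and Mmp7. Across the 31 members matched to a RefSeq promoter it was found in the same 6 only, and the same 250 bases held it in 4.46% of all 32851 promoters. A match describes the letters and not a bound site. The summed level of early-response and stress genes (Fos, Fosb, Jun, Junb, Egr1, Atf3, Hspa1a and Hspa1b), some of which encode AP-1 subunits, was 2855, 4704, 5040 and 2178 CPM in epithelium and 4997, 7861, 6110 and 5511 CPM in mesenchyme, and its part in these levels was not tested.

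Among the remaining Mmps, Mmp11, a stromelysin of stromal cells, was highest early. It was 52.7, 53.7, 10.5 and 10.8 CPM in mesenchyme and 14.2, 22.0, 4.97 and 1.15 CPM in epithelium, and was called higher in mesenchyme at each stage, by 2.11-fold (1.5 to 2.95) at the least, at E15.5, a call that ended when ratios were scaled by the median of all genes. Mmp19 and Mmp23 ran the other way. Mmp19, a secreted basement membrane protease, was 0.415, 4.77, 21.5 and 73.8 CPM in mesenchyme and never over 1.53 CPM in epithelium. Mmp23, which lacks the usual propeptide switch, was 4.98, 14.3, 22.0 and 130 CPM in mesenchyme and 1.96, 0.785, 1.96 and 4.59 CPM in epithelium. At P0 their mesenchymal levels were 48.2-fold (18.5 to 179) and 28.2-fold (15.9 to 55.2) above the epithelial ones. Mmp23 was spread over 57.9% of the P0 mesenchymal cells and Mmp19 over 24.9%.

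Adamts1 (chr16:85793827-85803113), a versican-cutting hyalectanase, was the highest Adamts gene in mesenchyme at every stage and in epithelium at E15.5 and P0. In epithelium at E13.5 and E14.5 Adamts17 had the higher value, at 13.7 and 23.6 CPM, with overlapping intervals. The tissue difference of Adamts1 closed. In mesenchyme it was 110 CPM (96.8 to 124), 384 (343 to 429), 215 (205 to 226) and 345 (323 to 369), where 94 of the 322 UMIs at E14.5 lay in 1 cell. In epithelium it was 5.88 CPM (3.04 to 10.3), 20.4 (13.3 to 29.9), 47.9 (44.3 to 51.6) and 298 (277 to 320). At E14.5, 14 of the 26 epithelial UMIs lay in 1 cell, and without it the level was 9.42 CPM (4.87 to 16.5), whose interval overlapped that of E13.5, while the later stages stood apart from each other and from both. Mesenchyme was 18.6-fold and 18.8-fold higher at the first pair of stages, 4.50-fold (4.11 to 4.93) at E15.5 and 1.16-fold (1.05 to 1.28) at P0, where it was not called. At the first pair of stages the epithelial level was 5.36% and 5.31% of the mesenchymal level. The highest mesenchymal marker was at 9.03% and 5.16%, so RNA of the other tissue cannot be told apart from epithelial Adamts1 there. After thinning, the share of epithelial cells with an Adamts1 UMI was 1.02%, 2.22%, 16.9% and 41.7%, and without thinning 6.12%, 22.2%, 39.8% and 50.4%.

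Its neighbour Adamts5, which lies 53.1 kb away and cuts aggrecan and versican, stayed mesenchymal. It was 17 CPM, 37.0, 22.6 and 178 in mesenchyme and 1.47, 5.50, 3.5 and 12.6 in epithelium, a ratio of 11.6, 6.73, 6.46 and 14.1. Adamts4, a further aggrecanase, was 2.08, 4.77, 4.68 and 37.5 CPM in mesenchyme and reached 6.12 CPM in P0 epithelium. Adamts9, Adamts15 and Adamts20, also versican-cutting enzymes, were highest in early mesenchyme. Adamts9 was 66.0, 85.9, 31.0 and 30.7 CPM in mesenchyme and 0.490, 0, 3.15 and 9.18 CPM in epithelium, and 24 of its 72 UMIs in E14.5 mesenchyme lay in 1 cell. Adamts15 was 21.6, 5.97, 1.38 and 2.39 CPM in mesenchyme and at most 1.57 in epithelium. Adamts20 was 17, 22.7 and 8.26 CPM in mesenchyme at the embryonic stages, 3.43, 0 and 0.140 in epithelium, and 0 in both tissues at P0, where 3 counts would be 1.20 CPM in mesenchyme and 1.15 CPM in epithelium. Between E13.5 and P0 the mesenchymal hyalectanases thus went in both directions, while 14.3% of all genes were higher at P0 and 35.8% lower. Adamts1, Adamts4 and Adamts5 were higher at P0, Adamts9, Adamts15 and Adamts20 were lower, and Adamts8 stayed under 5 CPM. With every cell thinned to 5000 UMIs the lower calls were lost, with Adamts9 under 2-fold and Adamts15 and Adamts20 under the UMI minimum. The Adamts9 call was also lost when ratios were scaled by the median of all genes or each cell had equal weight.

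Adamts2 (chr11:50602084-50807573), the main procollagen N-propeptidase, followed the mesenchyme closely. It was 29.1 CPM (22.7 to 36.7), 85.9 (67.2 to 108), 112 (104 to 120) and 201 (184 to 219) in mesenchyme and 0, 1.57, 1.33 and 6.12 CPM in epithelium. Mesenchyme was at least 19.8-fold higher at E13.5, where epithelium had no UMI, and 54.7-fold, 83.9-fold and 32.8-fold higher at the later stages. At E14.5 and E15.5 the epithelial level was 1.83% and 1.19% of the mesenchymal level, within the range of the mesenchymal markers. At P0 it was 3.05%, above the 0.950% of the highest mesenchymal marker. The other enzymes of this role were low: Adamts3 was highest in E14.5 mesenchyme at 7.16 CPM, and Adamts14 reached 4.68 CPM in E15.5 mesenchyme, from 34 UMIs in 31 cells.

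The COMP-cleaving Adamts12 was 16.2, 28.6, 15.6 and 80.6 CPM in mesenchyme and 0, 0, 0.210 and 3.44 CPM in epithelium. Adamts7, the other enzyme that cuts cartilage oligomeric matrix protein, was highest in E13.5 mesenchyme at 9.55 CPM. Adamts10 and Adamts17, both linked to fibrillin microfibrils, differed from each other: Adamts10 was steady in mesenchyme at 25.3, 29.8, 20.5 and 25.9 CPM against 4.90, 7.07, 4.06 and 6.12 in epithelium. Adamts17 was 16.6, 32.2, 12 and 4.79 CPM in mesenchyme and 13.7, 23.6, 9.09 and 1.91 CPM in epithelium, with ratios of 1.21, 1.37 and 1.32 at the embryonic stages and no call. Adamts19 was 29.1, 56.1, 18.6 and 45.5 CPM in mesenchyme and 12.7, 4.71, 16 and 0 CPM in epithelium. At P0 its mesenchymal level was at least 39.6-fold higher, and at E15.5 the ratio was 1.17 (0.935 to 1.45). Adamts6 reached 16.5 CPM in E14.5 epithelium and 16.2 CPM in E13.5 mesenchyme. Adamts18, an enzyme known from branching epithelia, was higher in epithelium at all 4 stages, by 5.43-fold (2.02 to 18.3), 13.8-fold (2.22 to 572), 44.2-fold (7.73 to 1765) and 9.11-fold (2.20 to 80.7), at 11.3, 16.5, 6.09 and 7.27 CPM. The E14.5 and P0 calls rest on 22 and 21 UMIs in both tissues together, and without the cell with most UMIs they were under the minimum. With every cell thinned to 5000 UMIs, or with a minimum of 50 UMIs, only the E15.5 call of Adamts18 remained.

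Of the 4 inhibitors, Timp2 (chr11:118301069-118355740) was the highest in mesenchyme at each stage, while Timp3 was higher than it in epithelium from E14.5 on. It was 164 CPM (149 to 181), 230 (199 to 265), 259 (248 to 271) and 658 (627 to 690) in mesenchyme, where the E14.5 and E15.5 intervals overlapped. Epithelial Timp2 was 40.2, 22.0, 35.1 and 125 CPM. Mesenchyme was 4.09-fold, 10.5-fold, 7.38-fold and 5.28-fold higher. Timp1 (chrX:20870166-20874735) was 15.8, 11.9, 42.8 and 185 CPM in mesenchyme and 0, 0.785, 5.18 and 60.1 CPM in epithelium. Its mesenchymal level was at least 10.7-fold higher at E13.5, 8.27-fold higher at E15.5 (6.4 to 10.8) and 3.07-fold higher at P0 (2.56 to 3.71). In P0 epithelium its 157 UMIs came from 48 cells, with 36 in 1 cell.

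Timp3 (chr10:86300372-86349506), the matrix-bound inhibitor, was the only one of the 3 measured Timps that was not higher in mesenchyme at P0. It was 64.4 CPM (54.6 to 75.3), 52.5 (38.1 to 70.5), 134 (126 to 143) and 186 (169 to 203) in mesenchyme. In epithelium it was 29.4 CPM (22.4 to 37.8), 54.2 (42.2 to 68.6), 134 (128 to 140) and 273 (253 to 293). The ratio of mesenchyme over epithelium was 2.19 (1.62 to 3.00), 0.969 (0.648 to 1.43), 1.01 (0.930 to 1.09) and 0.681 (0.605 to 0.767). Only the first was called, and that call ended when ratios were scaled by the median of all genes. Timp4 had at most 7 UMIs in a group. Timp1, Timp3 and Timp4 each lie inside a gene of the other strand (Syn1, Syn3 and Syn2), whose own counts were at most 6, 118 and 18 UMIs in a group.

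The balance of proteases and inhibitors was described as the share of Timp UMIs in the UMIs of all members. It takes all Timps and all proteases together and does not show which enzymes a Timp blocks. In mesenchyme this share was 25.9% (24.1 to 27.7), 19.5% (17.3 to 21.7), 33.2% (32.3 to 34.2) and 31.9% (30.9 to 33.0) in stage order. The epithelial share was 30.3% (26.2 to 34.7), 22.0% (18.2 to 26.1), 46.9% (45.5 to 48.2) and 48.8% (46.8 to 50.8). The 2 tissues overlapped at E13.5 and E14.5 and were apart at E15.5 and P0, where epithelium held the larger share. In Timp UMIs per protease UMI, P0 epithelium had 0.954 (0.880 to 1.03) and P0 mesenchyme 0.469 (0.448 to 0.492). The families differed: in mesenchyme from E13.5 to P0 the summed Mmp level was 324, 425, 396 and 1220 CPM, that of Adamts 384, 801, 482 and 971, and that of Timps 247, 296, 437 and 1028. In epithelium Mmps were 92.6, 170, 94.9 and 119 CPM, Adamts genes 67.1, 103, 102 and 360, and Timps 69.6, 77.0, 174 and 457. From E14.5 on, epithelial Timps were mostly Timp3, which made 36.0% of member UMIs at E15.5, and the protease side at P0 was mostly Adamts1.

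**Figure D3:**
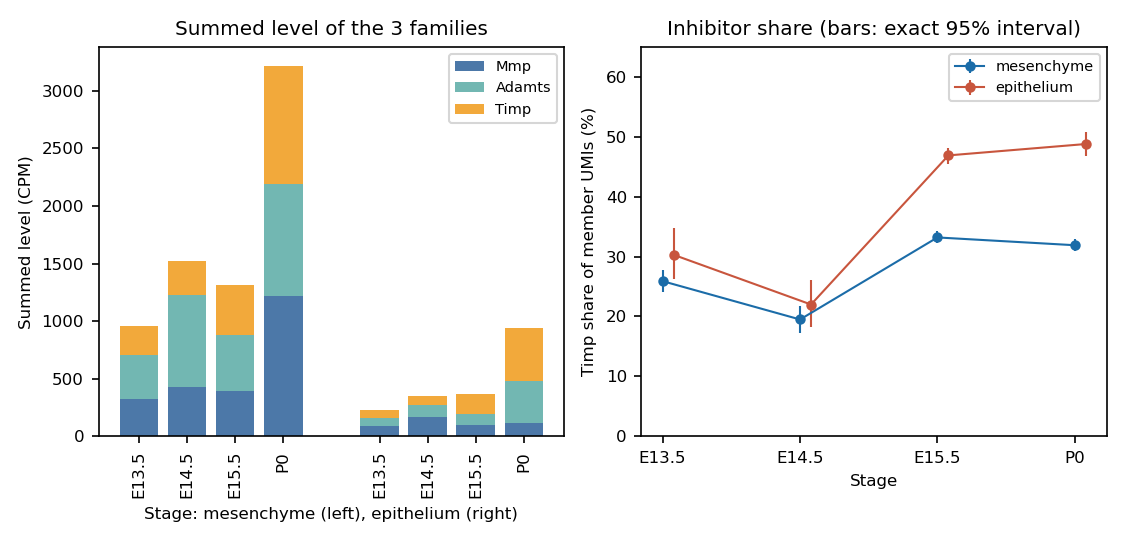
Left, summed level in CPM of the Mmp, Adamts and Timp genes, stacked, by stage in mesenchyme and epithelium; right, share of Timp UMIs in all member UMIs in percent, with exact 95% binomial intervals for counting error. The mesenchymal sum reaches 3220 CPM at P0, and the epithelial Timp share is 46.9% at E15.5 and 48.8% at P0, above 33.2% and 31.9% in mesenchyme.

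The second comparison set the ends of the series, P0 and E13.5, against each other within a tissue. In mesenchyme 24 members had enough UMIs, and 14 were higher and 7 lower at P0, while of all 10876 genes 14.3% were higher and 35.8% lower. The median log2 ratio was 1.59 for the members and -0.59 for all genes. Relative to that median, 15 members were higher and 4 lower, against 21.9% and 19.6% of all genes, with Adamts19 called higher and the calls of Adamts6, Adamts7 and Adamts9 lost. The members' lower share on that scale was near that of all genes. In epithelium 9 of 17 members were higher and 4 lower, against 17.4% and 20.2% of all 10105 genes, with a median of 1.63 for the members and -0.16 for all genes. The epithelial counts rested on the UMI minimum, with 15 higher and 5 lower at a minimum of 10 UMIs and 5 higher and 0 lower both at 50 UMIs and after every cell was thinned to 5000 UMIs. The skin list, which does not mark skin alone, was 507 CPM in epithelium at E13.5 and 27.5 CPM at P0. At least 2 of its UMIs were held by 78 of 98 and 13 of 230 cells. The epithelial ratios may thus compare groups with unlike shares of skin cells, and the part of skin in them was not tested. P0 differed from the embryonic stages also in enzyme doses and red cell lysis, and these cannot be told apart from stage.

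In mesenchyme 6 of 8 Mmps with enough UMIs were higher at P0: Mmp2 by 5.09-fold (4.47 to 5.81), Mmp14 by 2.79-fold (2.44 to 3.21), Mmp19 by 178-fold (31.5 to 7055, from 1 UMI at E13.5), Mmp23 by 26.0-fold (14.7 to 50.9), Mmp25 by 11.3-fold (5.22 to 28.9) and Mmp3 by at least 12.8-fold. Mmp11 was 4.90-fold lower (3.21 to 7.72) and Mmp16 was not called, at a ratio of 1.04. All 3 measured Timps were higher: Timp1 by 11.7-fold (8.40 to 16.7), Timp2 by 4.0-fold (3.58 to 4.48) and Timp3 by 2.89-fold (2.40 to 3.49). Of the 13 Adamts genes 5 were higher and 6 lower, or 38.5% and 46.2%, against 14.3% and 35.8% of all genes. Higher were Adamts4 by 18.1-fold, Adamts5 by 10.5-fold (7.60 to 14.8), Adamts2 by 6.92-fold (5.38 to 9.01), Adamts12 by 4.97-fold (3.52 to 7.20) and Adamts1 by 3.15-fold (2.74 to 3.63). Lower were Adamts20 by at least 14.2-fold, Adamts15 by 9.02-fold, Adamts17 by 3.47-fold, Adamts6 by 2.54-fold, Adamts7 by 2.39-fold and Adamts9 by 2.15-fold. The last call also ended when each cell was given equal weight. With every cell thinned to 5000 UMIs, Adamts6 and Adamts9 fell under 2-fold, and Adamts7, Adamts15 and Adamts20 fell under the UMI minimum.

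In epithelium the Timps were again higher at P0, Timp1 by at least 40.9-fold, Timp3 by 9.28-fold (7.12 to 12.3) and Timp2 by 3.1-fold (2.43 to 4.01). Adamts1 was 50.7-fold higher (28.9 to 98.5), Adamts9 18.7-fold (3.06 to 771), Mmp13 18-fold (2.92 to 740), Adamts5 8.59-fold (2.69 to 43.8), Mmp15 4.22-fold (2.13 to 9.29) and Mmp3 at least 7.29-fold, the last from 1 cell. The E13.5 epithelial levels of Adamts1, Adamts9 and Adamts5 were 5.36%, 0.742% and 8.63% of the mesenchymal ones. These lie within the range of the mesenchymal markers, whose highest was 9.03%. Without the cell that held most UMIs of each gene, 7 of the 9 were still called, the exceptions being Mmp13 and Mmp3. Adamts6 was 30.7-fold lower (5.01 to 1264), Mmp11 12.4-fold (3.84 to 63.5), Adamts19 at least 11.1-fold and Adamts17 7.17-fold (2.73 to 23.8). Mmp2 and Mmp14 were not called, with ratios of 0.835 (0.539 to 1.30) and 1.10 (0.822 to 1.47). The pair of Mmp2 and its activator was thus higher at P0 in mesenchyme and near its E13.5 level in epithelium.

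**Figure D4:**
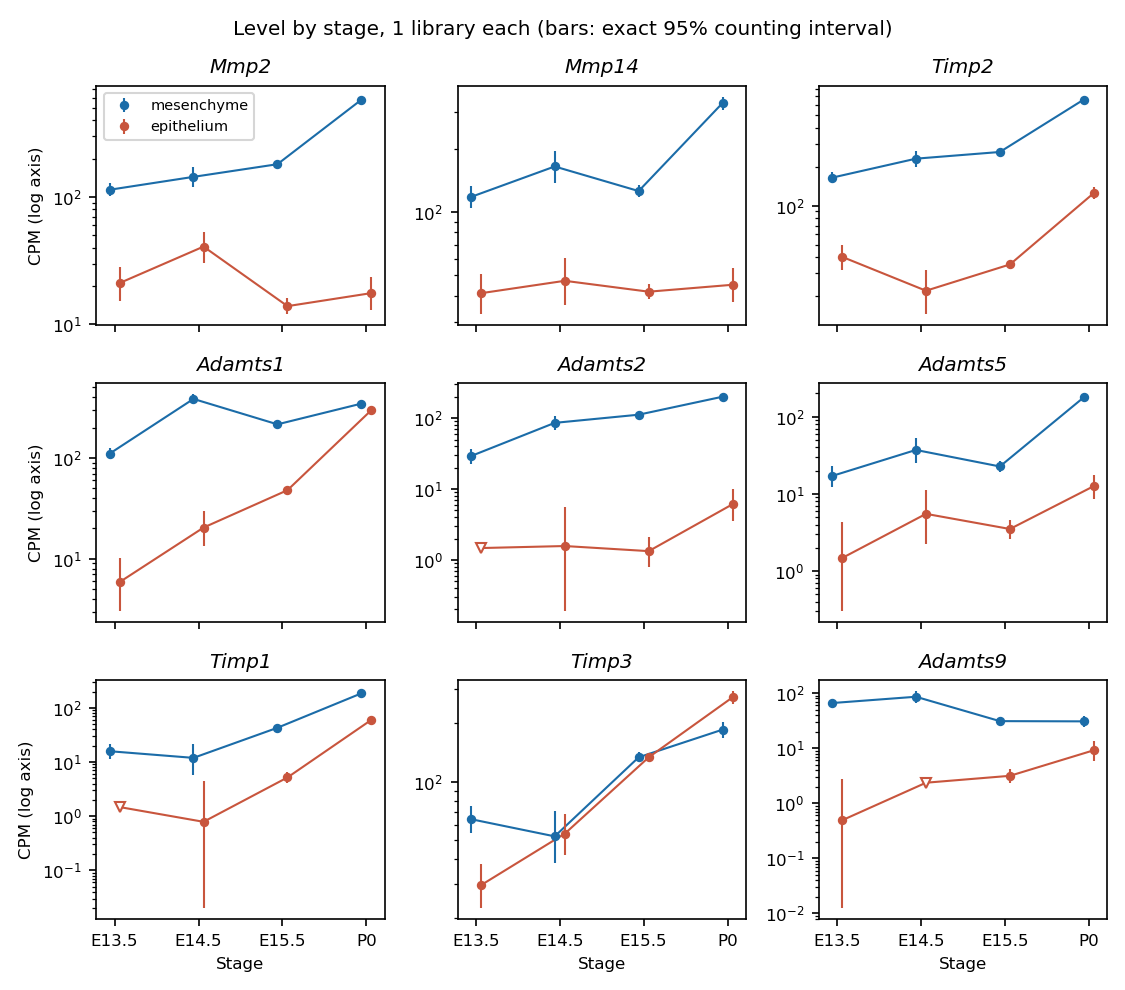
Level in CPM (log axis) of 9 members at the 4 stages in mesenchyme (blue) and epithelium (red), 1 library a stage; bars are exact 95% Poisson intervals and open triangles stand for 0 UMIs, drawn at 3 counts. Mmp2 and Mmp14 are above epithelium in mesenchyme at each stage and furthest apart at P0, Adamts1 in epithelium climbs to 298 CPM, the Timp3 lines cross, and Adamts9 in mesenchyme is higher at E13.5 and E14.5 than later.

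Single cells were compared after every cell was thinned to 5000 UMIs, at which 1 UMI stands for 200 CPM. The median mesenchymal cell held UMIs of 3, 4, 4 and 7 members in stage order, and the median epithelial cell 1, 1, 1 and 2. The highest number in 1 cell was 13, in P0 mesenchyme. Mmp2, Mmp14 and Timp2, the 3 partners of Mmp2 activation, were found together in 9.63% (5.23 to 15.9), 25.8% (11.9 to 44.6), 20.1% (15.6 to 25.3) and 51.3% (45.2 to 57.4) of mesenchymal cells in stage order. In epithelium the shares were 0 of 98 cells, 2.22%, 0.188% and 0.435%. Without thinning they were 51.1%, 71.0%, 84.8% and 74.4% in mesenchyme and 5.10%, 13.3%, 8.27% and 2.61% in epithelium, where cells of P0 were shallower than the others, with medians of 8743 and 9973 UMIs against 16438 to 26725. Shares of this kind follow the levels of the 3 genes and do not show that they are linked.

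Members also differed within a tissue. Cells were set by the marker list that stood highest relative to its mean over the tissue, which gives ranges and not cell types, and cells whose leading list was under 1.5 times the next were counted as near the limit. At P0 the mesenchyme was split by a list of Pi16, Dpp4, Sema3c and Wnt2 (102 cells, 9 near the limit), a list of Col15a1, Fabp4, Pparg and Aoc3 (89 cells, 9) and a list of Eln, Mfap4 and Mgp (77 cells, 22), and 5 cells had none of these genes. Of 19 members described, 3 were at least 2-fold above the next in the Pi16 cells, 4 in the Col15a1 cells and 0 in the Eln cells, against 3.36%, 2.40% and 1.95% of all 8014 genes with enough UMIs. Adamts5 was 337 CPM in the Pi16 cells, 81.7 in the Col15a1 cells and 36.9 in the Eln cells, 4.13-fold (3.15 to 5.50) above the next. Timp3 was 311, 100 and 87.7 CPM in the same order, 3.11-fold (2.41 to 4.04) above the next. The 3 Timps parted here: Timp1 was 443 CPM in the Col15a1 cells, 83.1 in the Pi16 cells and 58.5 in the Eln cells, 5.32-fold (4.20 to 6.80) above the next, with 54 of its 336 UMIs there in 1 cell, while Timp2 was 436, 867 and 600 CPM. Mmp19 was 192 CPM in the Col15a1 cells, 53.9 in the Eln cells and 3.74 in the Pi16 cells. Adamts12 was 150, 60.0 and 45.8 CPM in that order of lists. Mmp14 was even, at 326, 340 and 342 CPM in the Pi16, Col15a1 and Eln cells, as were Adamts2 at 212, 184 and 211 and Mmp25 at 36.4, 29.0 and 32.3. Mmp3 and Mmp11 also passed 2-fold on 28 and 16 UMIs, and Mmp3 was 1.51-fold above the next without the cells near the limit.

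**Figure D5:**
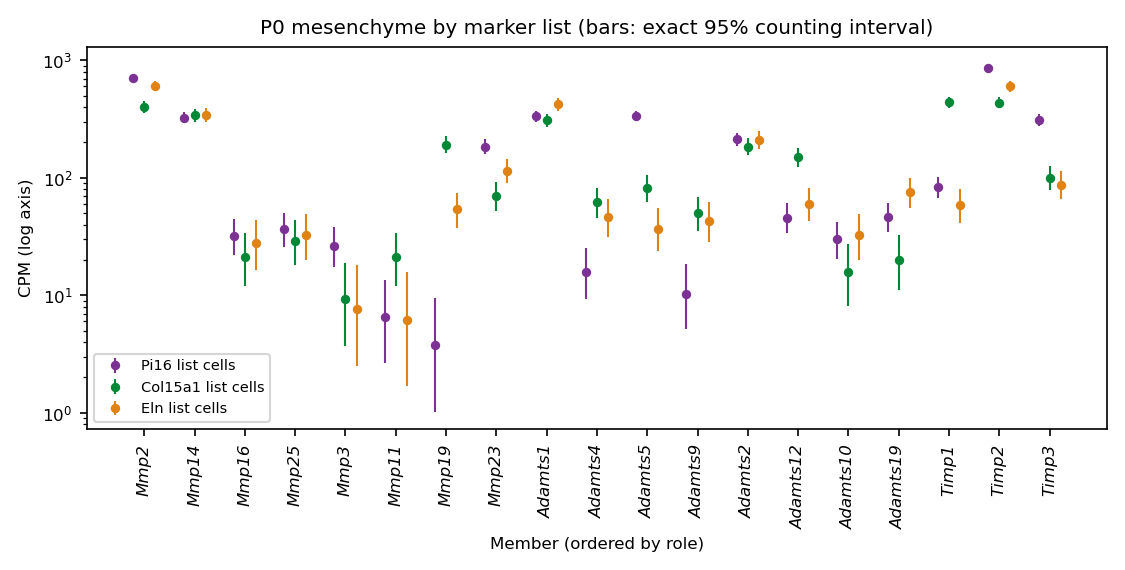
Level in CPM (log axis) of 19 members in P0 mesenchymal cells set by the Pi16, Col15a1 or Eln marker list, with exact 95% Poisson intervals. Adamts5 and Timp3 are highest in the Pi16 cells (337 and 311 CPM), Timp1, Mmp19 and Adamts12 in the Col15a1 cells (443, 192 and 150 CPM), and Mmp14 and Adamts2 are level across the 3.

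In the embryo the mesenchyme was split by a sub-epithelial list (Esr1, Lef1, Crabp1 and Vcan) and a dermal list (Plagl1 and Cdkn1c), names that rest on few genes, giving 62 and 73 cells at E13.5 and 189 and 94 at E15.5. At E15.5, 7 of 21 members were at least 2-fold higher in dermal and 2 in sub-epithelial cells, against 7.14% and 8.50% of all 10921 genes with enough UMIs, and at E13.5 it was 2 and 1 of 19, against 4.16% and 4.39% of 9160 genes. The 7 dermal members of E15.5 were Adamts genes. Adamts1 was 419 CPM in dermal and 135 in sub-epithelial cells, a 3.11-fold difference (2.81 to 3.44). Adamts17 was 33.4 and 3.46 CPM, a 9.64-fold difference (5.68 to 17.2), and Adamts5 was 56.2 and 9.24, a 6.08-fold difference (4.31 to 8.70). Adamts9, Adamts12, Adamts4 and Adamts19 were higher in dermal cells by 2.73-fold, 2.65-fold, 3.19-fold and 2.14-fold. Timp3 was the reverse, at 170 CPM in sub-epithelial and 45.5 in dermal cells, a 3.73-fold difference (3.01 to 4.66), and Adamts20 was 9.82 and 4.36 CPM. Mmp2, Mmp14 and Timp2 were within 2-fold, at 190 and 157, 109 and 167, and 234 and 322 CPM in sub-epithelial and dermal cells. At E13.5 Adamts5 was 25.7 CPM in dermal and 5.72 in sub-epithelial cells, with 16 of its 35 dermal UMIs in 1 cell. Adamts2 was 38.2 and 17.2 CPM, Adamts20 was 11.8 and 23.8, and Timp3 was 64.7 and 63.9, all in dermal and sub-epithelial order.

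In E15.5 epithelium 328 cells were set by a basal list (Lmo1, Pthlh, Cxcl14, Wnt10b, Sostdc1 and Bmp2) and 204 by a luminal list (Anxa1, Ly6d, Grhl3 and Krtdap, the last also in the skin list used here). Of the 532 cells, 489 held at least 2 UMIs of the skin list. Skin cells were not removed, and their part in this split was not tested. The study also described hybrid cells at E15.5, which a split by 2 lists puts on either side. Cells set by the basal list had medians of 562 CPM for that list and 285 CPM for the luminal list. Of 19 members described, 6 were at least 2-fold higher in the basal and 0 in the luminal cells, against 7.84% and 4.05% of all 11759 genes with enough UMIs. In the basal cells Adamts18 was 9.13 against 1.56 CPM, a 5.84-fold difference (2.92 to 13.2), Mmp11 was 7.26 against 1.56, Adamts17 was 11.8 against 5.04, and Adamts1 was 61.5 against 27.6, a 2.22-fold difference (1.86 to 2.67). Adamts3 was 1.87 against 0.695 CPM on 20 UMIs, and all 32 Mmp13 UMIs lay in 7 basal cells. Timp3 was 124 CPM in basal and 148 in luminal cells. In P0 epithelium a basal list (Acta2, Myh11, Krt5 and Krt14) set 62 cells, a luminal progenitor list (Aldh1a3, Notch1 and Lypd3) 119 and a mature luminal list (Prlr, Cited1 and Esr1) 48. Of 11 members described, 2, 1 and 1 were at least 2-fold above the next in these cells, against 2.96%, 1.22% and 6.47% of all 8249 genes with enough UMIs, and the mature luminal one was Mmp3, from 1 cell. The study described fewer basal cells at P0 than the 62 set by the basal list. The median of these 62 cells for the luminal progenitor list was 380 CPM. The Mmp2 of P0 epithelium lay mostly in these basal-list cells, at 61.2 CPM against 4.76 and 4.05 CPM in the luminal cells. It was 12.8-fold (5.37 to 37.2) above the next, from 37 UMIs in 10 cells. Adamts9 was also highest there, at 24.8 CPM against 3.97 and 5.40. Timp1 was 97.6 CPM in luminal progenitor cells, 34.7 in basal and 17.6 in mature luminal cells, 2.81-fold (1.76 to 4.71) above the next. Of the 157 Timp1 UMIs of P0 epithelium 36 lay in 1 cell, and this ratio was not computed without it. Timp3 was 340 CPM in basal, 320 in luminal progenitor and 135 in mature luminal cells, and Adamts1 was 455, 322 and 101 CPM in that order, with 56 of its 75 mature luminal UMIs in 1 cell.

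A list of 34 other genes of extracellular proteolysis was described beside the members: activators, plasminogen system genes, Adams, cathepsins, procollagen processing genes and Adamts-like proteins. In mesenchyme against epithelium 12 of 22, 11 of 19, 17 of 30 and 22 of 32 with enough UMIs were higher in stage order, and 0, 0, 2 and 5 were lower. Of all genes, 21.9%, 17.5%, 22.5% and 18.9% were higher and 10.3%, 14.7%, 16.8% and 24.7% lower. In mesenchyme 27 of 31 were higher at P0 than at E13.5 and 0 lower, and in epithelium 10 of 21 were higher and 1 lower. The shares of all genes were 14.3% higher and 35.8% lower in mesenchyme, and 17.4% and 20.2% in epithelium. Reck, a membrane-anchored inhibitor of Mmps, was 44.8, 88.3, 48.2 and 101 CPM in mesenchyme and 0, 0.785, 1.26 and 1.91 CPM in epithelium. The procollagen C-propeptidase Bmp1 was 190 CPM in P0 mesenchyme and 19.5 in P0 epithelium, and its enhancer Pcolce was 1103 and 7.65 CPM. The urokinase side went the other way: Plau was 7.18 CPM in P0 mesenchyme and 52.0 in P0 epithelium, 7.25-fold higher in epithelium (4.42 to 12.6), and its receptor Plaur was 169 and 597 CPM, 3.54-fold higher (3.18 to 3.95). Plaur had 0 UMIs in E13.5 epithelium, which makes its P0 level there at least 407-fold higher.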

How the data were processed

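The authors deposited 1 table of raw UMI counts per stage, made with Cell Ranger on the 10x mm10 reference from 3′ v3.1 libraries; the processing notes name version 6.0.0, the headers 3.1.0 for E15.5 and 6.0.0 for the other stages. The tables held 981, 807, 2642 and 1466 barcodes, each with at least 500 UMIs. The study's filter of 5000 UMIs and 6% mitochondrial UMIs left 235, 76, 816 and 503 cells, more at each stage than its methods state. No doublet caller was run; the sorter's doublet gate does not remove cells that share a droplet, and 16 cells had a smaller tissue sum within 4-fold of the larger. No kept barcode was shared between libraries. Genes were matched by Ensembl identifier. Raw counts were summed per stage and tissue, fitted by no model, and the fold functions were tested on simulated data. Python 3.11.15, numpy 2.4.6, scipy 1.17.1, pandas 2.3.3 and matplotlib 3.10.9 were used. Positions are from GENCODE M21 (GRCm38) and promoters from RefSeq (GRCm38.p6).

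These gene families and the lists were chosen with earlier results of these data known; the members follow from their symbols alone. Members with at least 20 CPM in a group are given in all 8 groups, those from 5 CPM with their highest group, and the rest are named only; a ratio is named when past 2-fold with 20 UMIs, and values outside this rule were chosen after they were seen. Alternatives changed the UMI minimum, the mitochondrial limit, the tissue margin, the depth of cells, the weight of cells, the filter, the scale and the fold. Leaving out single cells, cells with at least 10 immune or erythroid UMIs, or cells near a limit was added after the data were seen.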

Additional observations from a re-analysis of the deposited data

Results flagged for a closer look

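3 members had ratios on opposite sides of 1 under the same contrast, with both counting intervals leaving out 1; with 1 library a stage the differences were not tested. The ratio of Timp3 in mesenchyme over epithelium was 2.19 (1.62 to 3.00) at E13.5 and 0.681 (0.605 to 0.767) at P0. The ratio of Adamts9 at P0 over E13.5 was 0.465 (0.350 to 0.614) in mesenchyme and 18.7 (3.06 to 771) in epithelium, where E13.5 had 1 UMI. The ratio of Adamts19 at P0 over E13.5 was 1.56 (1.15 to 2.14) in mesenchyme, while in epithelium 0 UMIs at P0 make it at most 0.0901.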

How the results depend on the processing

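No paired analysis was possible because each stage had 1 library; the tissues were compared within it, and the stages are not replicates of each other. All 48 values of the Timp share under the alternatives stayed within the counting interval of the value reported. Of 66 counts of members called higher, 61 stayed within 1.5 times. The 5 that moved are given below, and counts of members called lower were not among the 66. With every cell thinned to 5000 UMIs, 10 were higher in mesenchyme at E13.5 and 4 at E14.5, and 5 were higher at P0 than at E13.5 in epithelium, as fewer members kept enough UMIs. Thinning also left 2 members lower at P0 than at E13.5 in mesenchyme, against 7. Members higher in epithelium were 0, 0, 1 and 1 in stage order with thinning, and 0, 0, 2 and 1 with a filter of 50 UMIs. Without these changes they were 1, 2, 4 and 3. For members higher at P0 in epithelium a filter of 10 UMIs gave 15 and one of 50 UMIs gave 5, and the members lower there went from 4 to 0 with thinning or a filter of 50. None of the 105 ratios named by the rule changed direction in 973 values, and 5 fell under 2-fold at least once. Of these values, the 105 under a filter of 10 UMIs and the 75 under one of 50 UMIs repeat the main ratio by construction. Ratios that an alternative left under the UMI minimum gave no value. With thinning 19 ratios left their counting interval and 47 stayed in it, and 14 left it when scaled by the median of all genes. The 31 mesenchymal cells at E14.5 limit what can be called there.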
